A study of Mus musculus with 9 samples.

Results

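The integrated stress response genes examined here are 10 transcripts linked to signalling through eIF2 and ATF4, measured in B.END3 cells after photodynamic treatment (PDT). The paper describes these cells as cerebrovascular endothelial cells of the mouse. They were taken by name, as the rows of the joint expression table whose gene name was Atf3, Atf4, Atf5, Ddit3, Trib3, Chac1, Asns, Sesn2, Ddit4 or Ppp1r15a. This gave 11 of 54532 rows, because 2 rows carry the name Ddit3. Of these rows, 10 passed the filter on low values (3 or more libraries with an FPKM of 1 or more) and were tested together with all other genes that passed, 11727 in total. The remaining row, a Ddit3 entry of 105 bases (ENSMUSG00000116429), was listed at 0 in all 9 libraries and lies inside the main Ddit3 gene.

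B.END3, a line described as endothelial cells from mouse brain vessels, was sequenced with 3 RNA sequencing libraries per group. Cells were untreated (Ctrl, with neither photosensitizer nor light), given PDT at 10 J/cm2 (Ep1), or given PDT at 20 J/cm2 (Ep2). The labels give mouse as the organism and the C57BL/6 strain, whereas their growth text and the study's methods call the cells rat. For Ep1 and Ep2, cells were loaded with porfimer sodium, a porphyrin photosensitizer, at 300 µg/mL for 90 min and illuminated at 635 nm and 100 mW/cm2. All groups come from the same line, and by their labels Ep1 and Ep2 differ in the light dose alone. No libraries of cells given only the drug or only the light were analysed here, so drug and light cannot be told apart in a difference from Ctrl, and the time from light to lysis was not given in the sources used here. The labels do not say whether the 3 libraries of a group came from separate cultures, so the p-values measure the spread between these libraries, which may be technical.

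In the integrated stress response, a set of kinases (PERK, GCN2, PKR and HRI) phosphorylates the translation factor eIF2, which lowers protein synthesis in general and raises translation of the ATF4 mRNA. ATF4, a basic leucine zipper (bZIP) transcription factor, then drives genes for amino acid supply, for redox balance and for its own attenuation, and prolonged signalling is known to add the pro-apoptotic factor CHOP, encoded by Ddit3. ATF4 and its bZIP partners bind the C/EBP-ATF response element, and endothelial cells are known to use the same pathway under oxidative and endoplasmic reticulum stress. The libraries measured mRNA only, so eIF2 phosphorylation and ATF4 protein were not observed.

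The core of the C/EBP-ATF response element, TGATGNAA on either strand, was found in the promoter windows of Asns, Atf3, Chac1 and Trib3. RefSeq windows of 300 bases (250 before to 50 after the start site, GRCm38.p6) were available for all 10 genes, with 2 windows for Atf5. The 30 bases around each match are shown on the strand of the gene, with the core in capitals.
Asns, chr6:7693214-7693243 (−): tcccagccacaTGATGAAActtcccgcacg
Atf3, chr1:191183425-191183454 (−): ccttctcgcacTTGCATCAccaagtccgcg
Chac1, chr2:119351038-119351067 (+): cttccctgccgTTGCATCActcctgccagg
Trib3, chr2:152344028-152344057 (−): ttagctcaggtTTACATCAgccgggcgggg
The match starts 23 bases before the RefSeq start site in Asns, 110 before it in Atf3, and 193 before it in Chac1. That of Trib3 begins at base 15 of the RefSeq transcript. These start sites can differ from the gene bounds listed below. The Atf3 window (chr1:191183284-191183583) lies inside the listed minus-strand gene, which begins at 191218039, so the listed start was not searched. The Asns match lies inside its listed gene, and the Trib3 match lies before the listed start of Trib3. Atf3 and Chac1 carry the same 8 letters, TTGCATCA. The core was present in 3.97% of 32851 RefSeq windows of this length and in 4 of the 11 windows of these genes.

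The other searched elements were rarer among the genes. The cAMP response element (CRE), TGACGTCA, occurred in 1.79% of all windows and in that of Ppp1r15a, 12 bases before its start site, so this stretch is shown next to the longer Atf3 promoter, the gene with the largest fold change below.
Atf3, chr1:191183376-191183503 (−): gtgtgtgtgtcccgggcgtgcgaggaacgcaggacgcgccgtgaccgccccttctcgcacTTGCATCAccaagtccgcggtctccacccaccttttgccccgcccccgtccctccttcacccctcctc
Ppp1r15a, chr7:45526269-45526340 (−): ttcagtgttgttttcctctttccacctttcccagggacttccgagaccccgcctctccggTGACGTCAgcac
Here the capitals mark the C/EBP-ATF core in Atf3 and the CRE in Ppp1r15a. The AP-1 letters TGANTCA (7.81% of windows) were found in Ddit3, and the antioxidant response element core TGACNNNGC (12.4%) in Asns, Ppp1r15a and Sesn2. The endoplasmic reticulum stress element (0.119% of windows) was found in none of these windows, and none of the searched letters occurred in those of Atf4, Atf5 and Ddit4. A match is a description of the letters in this window and was not tested for binding.

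**Figure D1:**
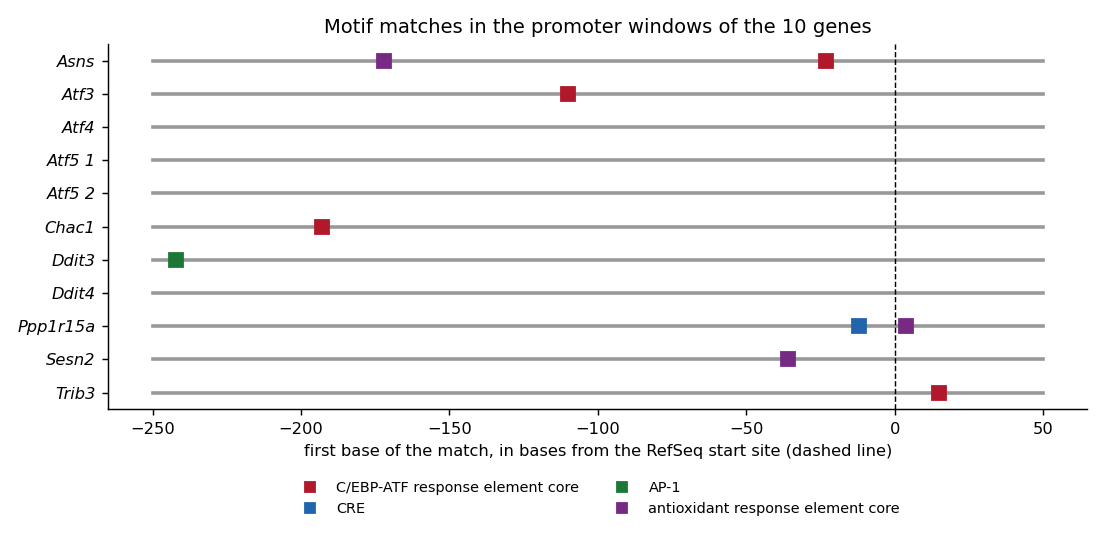
Map of the motif matches in the promoter windows of the 10 genes; each grey line is 1 RefSeq window from 250 bases before to 50 after the start site (dashed), drawn to scale in bases, and each square is the first base of a match (Atf5 has 2 windows). C/EBP-ATF cores lie in Asns, Atf3, Chac1 and Trib3, the CRE in Ppp1r15a, the AP-1 letters in Ddit3, and antioxidant cores in Asns, Ppp1r15a and Sesn2.

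Library totals recovered from the values lay between 16240688 and 19509225 fragments. Endothelial markers were sparse in this line: of 12, only Flt1, Ets1 and Eng passed the filter. Kdr, Erg, Emcn and Cldn5 stayed under 0.1 FPKM in every library. Pecam1 averaged 0.143 ± 0.0558 and Cdh5 0.857 ± 0.0471 FPKM in Ctrl. The epithelial markers were split. Keratins Krt8, Krt18 and Krt19 averaged 640 ± 15.9, 237 ± 6.45 and 174 ± 4.25 FPKM in Ctrl and make up nearly all of the epithelial sum given next. Epcam (0.812 ± 0.0741) and Cdh1 (0.0338 ± 0.0293) were low in Ctrl. The identity of the line was not tested here. The summed level of the endothelial list was 21.6 to 22.5 FPKM in Ctrl, 22.9 to 25.5 in Ep1 and 28.4 to 29.8 in Ep2, and that of 5 epithelial markers was 1029 to 1081, 937 to 1041 and 1155 to 1372. Both sums were highest in Ep2, and their part in the results below was not tested. None of 6 mural, 5 astrocyte and 5 leukocyte markers passed the filter, and Col1a1 alone did so of 5 fibroblast markers. In bulk samples of this kind, fewer cells of a type and less RNA per cell cannot be told apart. Single libraries stood apart for some of the 10 genes, Ep1 replicate 1 for Atf3 and Ep2 replicate 1 for Ddit4, Trib3 and Asns, and results that rest on them are given with and without them.

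In untreated cells the levels of the 10 genes spanned about 2 orders of magnitude. Atf4 was the most abundant at 167 ± 4.60 FPKM (SD, n = 3, as for all means below), followed by Ddit4 (123 ± 3.67), Asns (52.9 ± 2.24), Atf5 (32.9 ± 2.08), Trib3 (16.9 ± 1.51), Sesn2 (12.2 ± 0.264), Ppp1r15a (10.5 ± 0.324), Ddit3 (8.73 ± 0.60), Chac1 (5.15 ± 0.179) and Atf3 (1.94 ± 0.246). No neighbours in this order overlapped in their Ctrl libraries. FPKM, the fragments of a gene scaled by its length and by the library total, is per length, so these levels can be set side by side.

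After the lower dose, Atf3, Atf4 and Ppp1r15a rose, and none of the 10 genes fell past the threshold (limma on log2(FPKM + 1), Benjamini-Hochberg adjusted p below 0.05 over all tested genes). Across all tested genes 11.3% passed this threshold in Ep1 against Ctrl, and 6.32% of all tested genes passed upwards. The median log2 fold change of the 10 genes was 0.14, beside −0.009 over all tested genes. The Ep1 libraries of 6 of the genes lay wholly above Ctrl and those of Ddit4 wholly below, where 20.8% and 20.5% of tested genes did so.

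After the higher dose, Atf3, Atf4, Atf5, Asns, Trib3 and Ddit3 rose, again with no fall. In Ep2 against Ctrl, 53.2% of all tested genes passed and 23.9% passed upwards. The median of the 10 genes was 0.41 beside −0.029 over all genes. Libraries of Ep2 lay wholly above Ctrl for 6 genes and wholly below for none, as for 27.0% and 32.7% of tested genes. Both comparisons use the same 3 Ctrl libraries and are therefore not independent of each other.

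**Figure D2:**
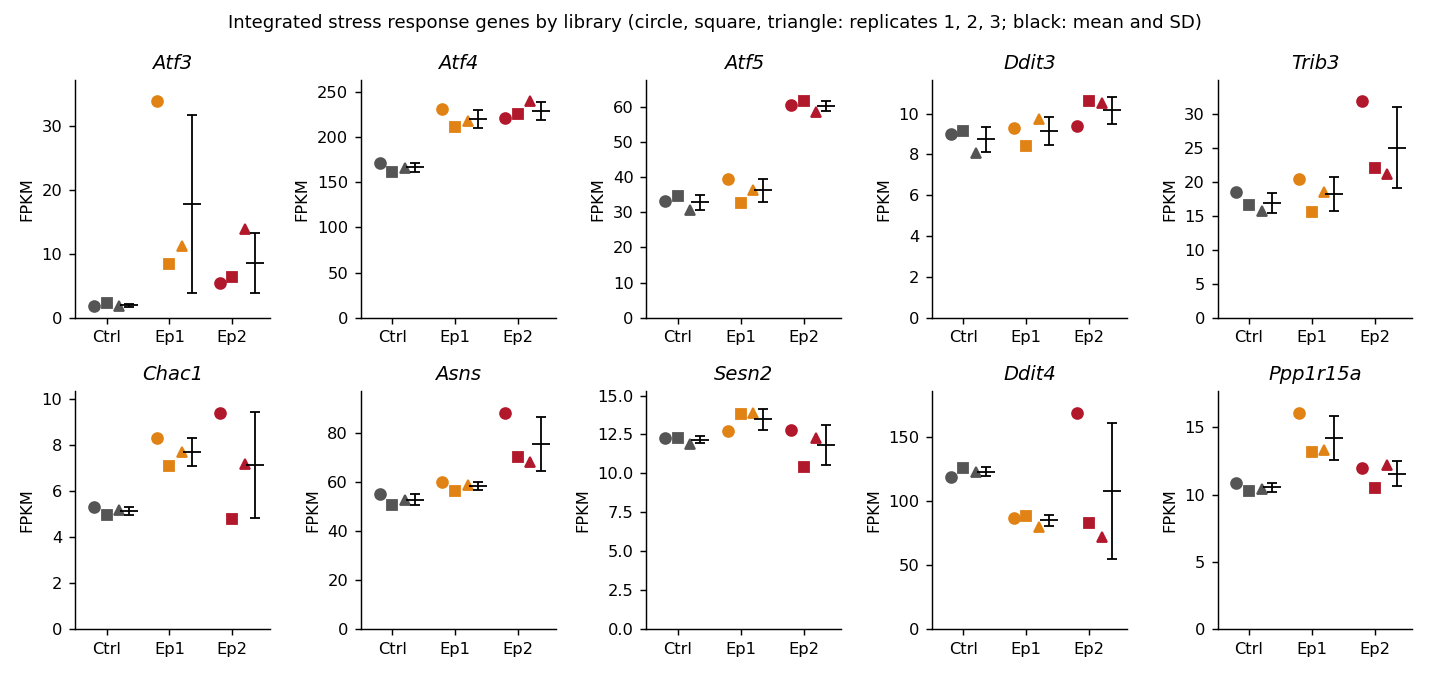
FPKM of each gene in every library (vertical axes, from 0, each on its own scale), with groups on the horizontal axis; symbols are replicates 1 to 3, and the black mark is the mean and SD of the 3 libraries. Atf4 is raised to a similar level at both doses, Atf5 only separates at Ep2, and Atf3 in Ep1 and Ddit4 in Ep2 each have 1 library far above the others.

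Atf4 (ENSMUSG00000042406, chr15:80255184-80257541, GRCm38, plus strand) encodes the central factor of the response. Its level was 172, 162 and 166 FPKM in Ctrl, 231, 212 and 218 in Ep1, and 221, 226 and 240 in Ep2. Every treated library lay above every Ctrl library, while Ep1 and Ep2 overlapped. The log2 fold change was 0.40 in Ep1 (SE 0.048, limma adjusted p = 0.00538) and 0.45 in Ep2 (SE 0.048, adjusted p = 5.86e-05), which in means of FPKM is a rise of 32.1% and 37.3%. The doses differed by 0.06 with a 95% interval from −0.05 to 0.16 (limma, adjusted p = 0.377). Both rises passed in 14 of 14 alternative fits, with adjusted p from 6.84e-05 to 0.0323 in Ep1 and from 9.88e-08 to 0.00053 in Ep2.

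Atf3 (ENSMUSG00000026628, chr1:191170296-191218039, minus strand), an early stress-induced bZIP repressor and a target of ATF4, had the largest fold change of the 10 genes at both doses. Ctrl libraries held 1.88, 2.21 and 1.73 FPKM, Ep1 libraries 33.8, 8.36 and 11.2, and Ep2 libraries 5.38, 6.30 and 13.9. These values rest on 69 to 93 fragments per library in Ctrl, 302 to 1343 in Ep1, and 221 to 498 in Ep2. All treated libraries exceeded all Ctrl libraries, the doses overlapped, and Ep1 replicate 1 was about 3 times as high as the next Ep1 library. The spread of Atf3 on the log2 scale was larger than that of 99.9% of tested genes in Ep1 and of 98.9% in Ep2.

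The log2 fold change of Atf3 was 2.43 in Ep1 (SE 0.50, 95% interval 1.27 to 3.59, limma adjusted p = 0.0253) and 1.60 in Ep2 (SE 0.50, 0.43 to 2.76, adjusted p = 0.0279). The 2 doses differed by −0.84 (−2.00 to 0.33, limma adjusted p = 0.214), an interval that covers both a several-fold lower level at Ep2 and a higher one. Without Ep1 replicate 1, the library that stood apart, the Ep1 value was 1.86 (limma adjusted p = 0.044) and the difference between the doses −0.27 (adjusted p = 0.573). In Ep1 the adjusted p of limma was 0.0749 without Ctrl replicate 1, 0.0852 without Ctrl replicate 2 and 0.0671 without Ep1 replicate 3, and over the 14 alternatives it lay between 0.0211 and 0.115. In Ep2 it lay between 0.00871 and 0.166 and passed in 8 of 14. Leaving out any Ctrl replicate or Ep2 replicate 3 cost the call. With all libraries kept, the calls at both doses were lost with no filter (limma adjusted p = 0.0576 in Ep1 and 0.051 in Ep2). They were also lost under voom on recovered fragments (0.115 and 0.166). The paper named Atf3 among the genes chosen for quantitative RT-PCR, an assay it reports for the higher dose. Its text leaves Atf3 out of the genes found up-regulated by that assay and gives no value for it.

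Atf5 (ENSMUSG00000038539, chr7:44812256-44816658, minus strand), a bZIP factor whose mRNA is translated under eIF2 phosphorylation like that of Atf4, separated at the higher dose. Libraries of Ctrl held 33.3, 34.7 and 30.6 FPKM, those of Ep1 39.6, 32.8 and 36.4, and those of Ep2 60.6, 61.7 and 58.8. Ep1 overlapped with Ctrl, and the 3 Ep2 libraries lay close together and above all others. Atf5 rose by 83.5% in Ep2 (log2 fold change 0.86, SE 0.069, limma adjusted p = 1.49e-05), and its change of 0.13 in Ep1 did not pass (−0.02 to 0.29, adjusted p = 0.228). Ep2 exceeded Ep1 directly (0.72, SE 0.069, limma adjusted p = 5.63e-05), and both of these calls held in 14 of 14 alternatives.

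Atf5 shares 571 bases with Nup62 on the opposite strand, and whether the counting used strand was not given in the sources used here. Nup62, a nuclear pore protein, fell in Ep2 from 53.5 ± 4.22 to 41.9 ± 1.92 FPKM (log2 fold change −0.34, limma adjusted p = 0.00125), the opposite direction to Atf5.

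Ddit3 (ENSMUSG00000025408, chr10:127290774-127296288, plus strand), which encodes CHOP, changed least among the genes that passed. It measured 8.99, 9.16 and 8.05 FPKM in Ctrl, 9.30, 8.42 and 9.72 in Ep1, and 9.40, 10.6 and 10.5 in Ep2. The Ep2 libraries lay above Ctrl by a small margin, and those of Ep1 overlapped with both groups. Its rise in Ep2 was 16.5% (log2 fold change 0.20, SE 0.071, limma adjusted p = 0.0378). The call held in 7 of 14 alternatives, with limma adjusted p between 0.0151 and 0.128. It was lost without Ctrl replicate 1, Ctrl replicate 3, Ep2 replicate 2 or Ep2 replicate 3. With all libraries kept, it was lost with no filter (0.0933), with a replicate block (0.0697) and under voom on recovered fragments (0.0501). In Ep1 the change was 0.06 (−0.10 to 0.22, limma adjusted p = 0.612). At its end Ddit3 overlaps by 68 bases with Mars on the opposite strand, which fell in Ep2 (−0.68, limma adjusted p = 6.72e-06).

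Ppp1r15a (ENSMUSG00000040435, chr7:45522916-45526268, minus strand) encodes GADD34, which directs a phosphatase to eIF2 and ends the response. Its levels were 10.9, 10.3 and 10.4 FPKM in Ctrl, 16.1, 13.2 and 13.3 in Ep1, and 12.0, 10.5 and 12.2 in Ep2. Ep1 lay above both other groups without overlap, and Ep2 overlapped with Ctrl. Ppp1r15a rose in Ep1 by 35.3% (log2 fold change 0.40, SE 0.081, limma adjusted p = 0.0188) and not past the threshold in Ep2 (0.12, −0.06 to 0.30, adjusted p = 0.232). In the direct test it was lower in Ep2 than in Ep1 (−0.28, SE 0.081, limma adjusted p = 0.0211).

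The Ep1 call for Ppp1r15a passed in 9 of 14 alternatives (limma adjusted p 0.0035 to 0.0823) and was lost with no filter and without any 1 of Ctrl replicate 1, Ctrl replicate 2, Ep1 replicate 1 and Ep1 replicate 3. The difference between doses passed in 10 of 14 (limma adjusted p 0.0123 to 0.074), with losses under median centring (0.0524), with no filter, and without Ep1 replicate 1 or Ep2 replicate 2.

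Trib3 (ENSMUSG00000032715, chr2:152337422-152344032, minus strand) encodes a pseudokinase that binds ATF4 and CHOP and dampens their activity. Ctrl libraries held 18.5, 16.5 and 15.6 FPKM, Ep1 libraries 20.4, 15.5 and 18.5, and Ep2 libraries 31.8, 22.0 and 21.1. All Ep2 libraries exceeded the rest, replicate 1 by the widest margin, and Ep1 overlapped with Ctrl. Trib3 rose by 48.2% in Ep2 (log2 fold change 0.52, SE 0.16, limma adjusted p = 0.0223), and by 0.34 on the log2 scale without Ep2 replicate 1 (adjusted p = 0.0283). The call was lost without Ctrl replicate 2 (0.0603) or Ctrl replicate 3 (0.0636) and passed in the other 12 of 14 alternatives (0.00288 at the lowest). In Ep1 the difference was 0.09 (−0.27 to 0.46, limma adjusted p = 0.73), and Ep2 against Ep1 gave 0.43 (0.07 to 0.79 before adjustment, adjusted p = 0.0572, and 0.00897 to 0.17 over the alternatives), or 0.25 without Ep2 replicate 1 (adjusted p = 0.102).

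Asns (ENSMUSG00000029752, chr6:7675169-7693254, minus strand) encodes asparagine synthetase, the textbook amino acid response target. It was at 55.2, 50.7 and 52.8 FPKM in Ctrl, 59.9, 56.5 and 58.8 in Ep1, and 88.4, 70.2 and 68.2 in Ep2. The groups were ordered by dose without overlap, with Ep2 replicate 1 again highest. Asns rose by 42.9% in Ep2 (log2 fold change 0.50, SE 0.087, limma adjusted p = 0.00109), and Ep2 exceeded Ep1 (0.36, SE 0.087, adjusted p = 0.00865). Without Ep2 replicate 1 these values were 0.38 (limma adjusted p = 0.000202) and 0.24 (adjusted p = 0.00318). Both held in 14 of 14 alternatives, while the Ep1 difference of 0.14 did not pass (−0.05 to 0.34, limma adjusted p = 0.313).

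Chac1 (ENSMUSG00000027313, chr2:119351229-119354381, plus strand) encodes an enzyme that degrades glutathione. It was low, at 5.32, 4.97 and 5.16 FPKM in Ctrl, 8.30, 7.10 and 7.70 in Ep1, and 9.42, 4.80 and 7.17 in Ep2, with 147 to 294 fragments per library. Ep1 lay above Ctrl without overlap, and in Ep2 replicate 1 was highest and replicate 2 under every Ctrl library. Neither difference passed: 0.50 in Ep1 (0.09 to 0.91 before adjustment, limma adjusted p = 0.107) and 0.36 in Ep2 (−0.05 to 0.77, adjusted p = 0.122). Chac1 passed in Ep1 when only Ep1 and Ctrl were fitted (limma adjusted p = 0.00634, against up to 0.252 in other alternatives), and in Ep2 without Ep2 replicate 2, where the value was 0.59 (adjusted p = 0.00216, against up to 0.322).

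Sesn2 (ENSMUSG00000028893, chr4:132492032-132510501, minus strand) and Ddit4 (ENSMUSG00000020108, chr10:59949669-59951834, minus strand) encode stress-induced inhibitors of mTORC1. Sesn2 stayed between 10.4 and 13.9 FPKM in all libraries, at 12.3, 12.3 and 11.9 in Ctrl, 12.7, 13.8 and 13.9 in Ep1, and 12.8, 10.4 and 12.3 in Ep2. Ep1 lay just above Ctrl, and Ep2 spanned the Ctrl range. Its log2 fold change was 0.14 in Ep1 (−0.02 to 0.30, limma adjusted p = 0.236) and −0.04 in Ep2 (−0.20 to 0.12, adjusted p = 0.646). The difference between doses was −0.18 (−0.34 to −0.02 before adjustment, limma adjusted p = 0.0689) and passed only without Ep2 replicate 1 (0.024) among 14 alternatives.

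Ddit4 went the other way from the rest in most treated libraries. Ctrl held 119, 126 and 123 FPKM, Ep1 86.6, 88.1 and 80.0, and Ep2 169, 82.7 and 72.0. The Ep1 libraries and Ep2 replicates 2 and 3 were under every Ctrl library, while Ep2 replicate 1 was above all of them. The log2 fold change was −0.53 in Ep1 (−1.17 to 0.11, limma adjusted p = 0.246) and −0.29 in Ep2 (−0.93 to 0.35, adjusted p = 0.41), with the wide Ep2 spread entering the shared variance of both. Ddit4 passed in Ep1 when only Ep1 and Ctrl were fitted (limma adjusted p = 0.00318, against up to 0.426 in other alternatives), and in Ep2 without Ep2 replicate 1, where the value was −0.66 (adjusted p = 7.5e-05, against up to 0.892).

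**Figure D3:**
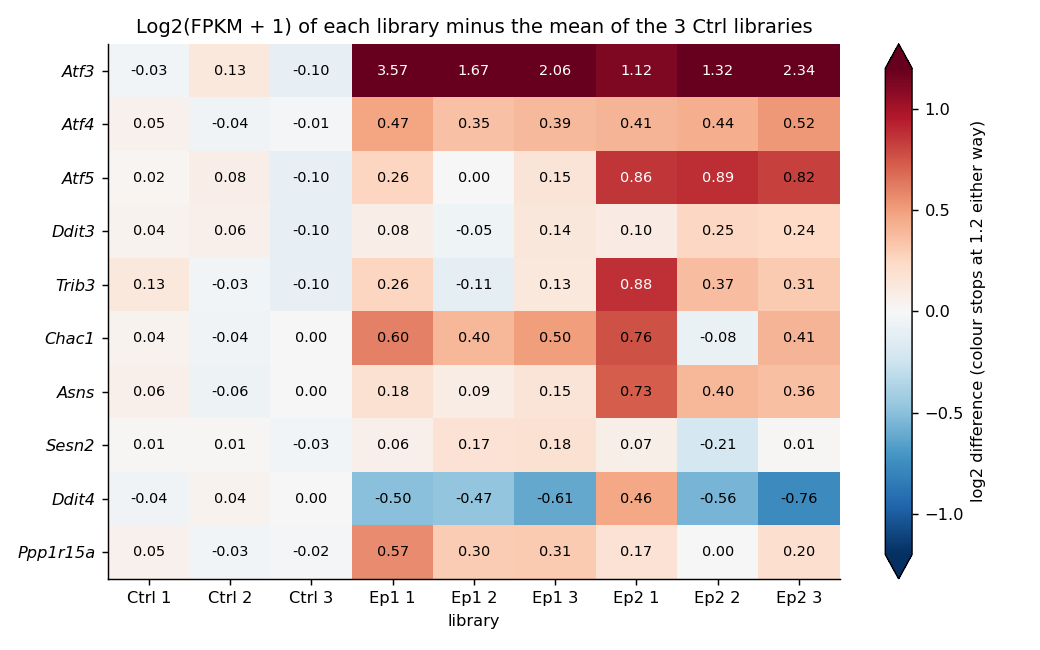
Log2(FPKM + 1) of each gene (rows) in each library (columns) minus the mean of the 3 Ctrl libraries, with the value printed in each cell and the colour scale stopping at 1.2 either way. Ep2 replicate 1 combines the highest Ddit4, Trib3, Asns and Chac1 values of Ep2, and Ep1 replicate 1 has the highest Atf3 value of all libraries (3.57).

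The genes did not share 1 order of libraries within a group. Ep1 replicate 1 was the highest Ep1 library for 7 of the 10 genes, where it was so for 35.6% of all tested genes, and Ep1 replicate 2 was the lowest for 8 (34.7% of tested genes). Ep2 replicate 1 was highest for Ddit4, Asns, Sesn2, Trib3 and Chac1 (38.9% of tested genes), and Ep2 replicate 3 for Atf4, Ppp1r15a and Atf3. The spread of Ddit4, Chac1 and Trib3 in Ep2 was larger than that of 98.9%, 97.0% and 94.3% of tested genes, and that of Atf5 larger than only 10.7%.

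Between the doses, Atf5 and Asns were higher and Ppp1r15a was lower in Ep2 than in Ep1, and the other 7 genes did not pass. Of all tested genes 44.0% passed, 18.8% upwards and 25.2% downwards, and the median of the 10 genes was 0.10 beside −0.015 over all genes. The Ep2 libraries lay wholly above those of Ep1 for 3 genes and wholly below for 1, where 24.1% and 30.3% of tested genes did so. The share of upward calls depends on scaling, at 42.8% of calls in the main fit and 55.5% after median centring. For Atf4 the interval of the difference (−0.05 to 0.16) was narrow, whereas for Atf3 (−2.00 to 0.33) and Ddit4 (−0.40 to 0.88, limma adjusted p = 0.515) it was wide.

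**Figure D4:**
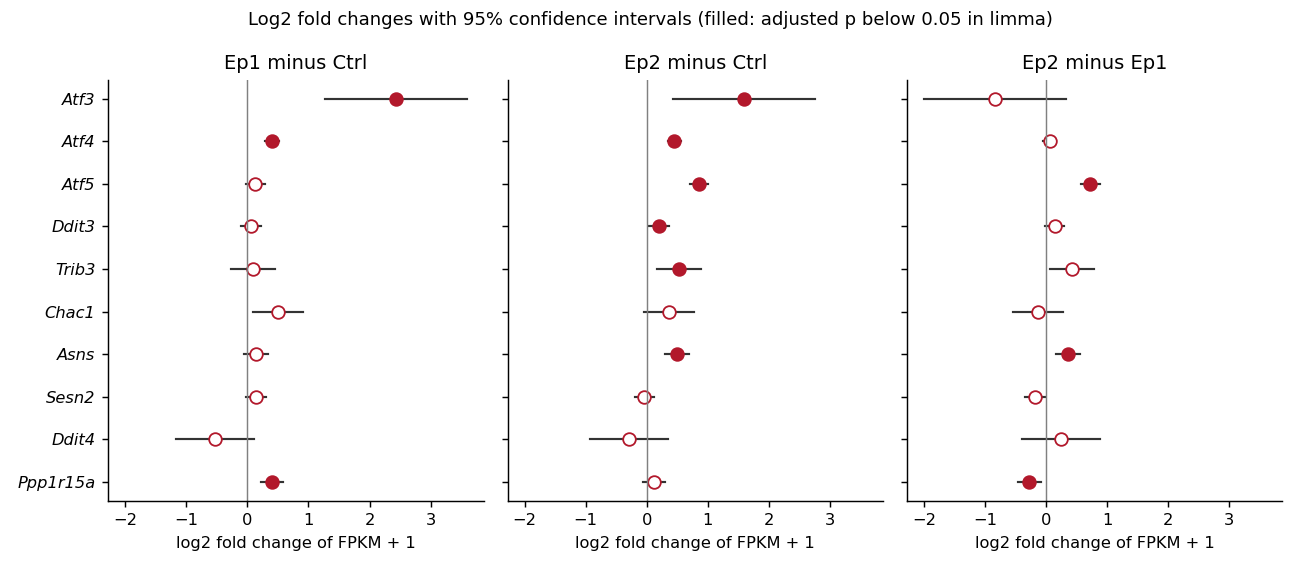
Log2 fold change of FPKM + 1 (horizontal axis) for each gene in the 3 comparisons, with unadjusted 95% confidence intervals as bars and filled points for an adjusted p below 0.05 in limma. Filled points are Atf3, Atf4 and Ppp1r15a in Ep1, 6 genes in Ep2, and Atf5, Asns and Ppp1r15a between the doses.

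Upstream of these genes, more of the eIF2 machinery fell than rose at the higher dose. Of 18 tested genes for eIF2, its exchange factor eIF2B, the kinases, the phosphatase subunit Ppp1r15b, and the regulators Dnajc3, Impact, Gcn1l1, Oma1 and Dele1, 2 rose and 1 fell in Ep1 and 4 rose and 10 fell in Ep2, with medians of 0.01 and −0.15. Counts of this and the following lists stand beside 6.32% upward and 4.97% downward calls over all genes in Ep1, 23.9% and 29.3% in Ep2, and 18.8% and 25.2% between the doses, and the genes of a list are named by smallest adjusted p, not by fold. All 5 eIF2B subunits, which recharge eIF2 with GTP, fell in Ep2, from Eif2b1 at −0.18 (limma adjusted p = 0.0145) to Eif2b2 at −0.56 (adjusted p = 0.000859). Gcn1l1, the ribosome-bound activator of GCN2, fell at both doses (−0.24, adjusted p = 0.0251, and −0.50, adjusted p = 6.18e-05), and Impact, its known inhibitor, rose in Ep2 from 31.9 ± 1.28 to 48.2 ± 3.04 FPKM (0.58, adjusted p = 2.66e-05). Ppp1r15b, the constitutive partner of the eIF2 phosphatase, rose at both doses (0.31, adjusted p = 0.0138, and 0.47, adjusted p = 0.000121).

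Among the kinases, Eif2ak3 (PERK) stayed at 3.90 ± 0.476, 4.03 ± 0.510 and 4.03 ± 0.412 FPKM in Ctrl, Ep1 and Ep2, and Eif2ak1 (HRI) at 7.57 ± 0.101, 7.21 ± 0.398 and 7.07 ± 0.423. Neither passed at either dose. Eif2ak2 (PKR) rose in Ep2 (0.25, limma adjusted p = 0.00382) and Eif2ak4 (GCN2) fell (−0.21, adjusted p = 0.00346). Eif2s1, the eIF2 subunit that is phosphorylated, rose in Ep1 (0.16, adjusted p = 0.0345) and fell in Ep2 (−0.13, adjusted p = 0.0203). Between the doses 3 of the 18 genes were higher and 10 lower in Ep2 (median −0.17), with Impact highest (0.56, adjusted p = 5.19e-05), and the 10 became 6 without Ep1 replicate 2. The 2 rises in Ep1 became 0 without Ctrl replicate 2, Ep1 replicate 1 or Ep1 replicate 3, and the fall of Gcn1l1, the only one in Ep1, was lost with no filter and without Ctrl replicate 1, Ctrl replicate 2, Ep1 replicate 2 or Ep1 replicate 3. With any library left out, the 4 rises and 10 falls in Ep2 stayed at 4 and at 9 or 10.

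Of 11 tested bZIP partners and relatives of ATF4, 4 rose in Ep1 and 6 in Ep2, with none falling and medians of 0.20 and 0.25. Cebpb, a C/EBP partner of ATF4, rose from 48.8 ± 2.28 FPKM to 71.5 ± 8.08 in Ep1 (0.54, limma adjusted p = 0.0168) and 73.5 ± 9.84 in Ep2 (0.57, adjusted p = 0.0015). The small Maf genes Mafk (0.39, adjusted p = 0.00704) and Mafg (0.17, adjusted p = 0.0233) rose in Ep1 as well, and in Ep2 the smallest adjusted p values belonged to Mafg (0.42, adjusted p = 2.27e-05), Mafk (0.31, adjusted p = 0.00116) and Cebpg (0.25, adjusted p = 0.00123). Between the doses 3 were higher, with the smallest adjusted p for Cebpg (0.35, adjusted p = 0.000255), and Jun was lower in Ep2 (15.3 ± 2.82 against 33.2 ± 12.9 FPKM, −1.02, adjusted p = 0.00992). The Ep1 count fell to 1 without Ctrl replicate 1, Ctrl replicate 2, Ep1 replicate 1 or Ep1 replicate 3.

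The cystine carrier Slc7a11 had the largest rise in Ep1 among the genes of the pathway lists that passed. Of 8 amino acid transporters tested, 4 rose in Ep1, and 4 rose and 2 fell in Ep2 (medians 0.18 and 0.02). Slc7a11, which feeds glutathione synthesis, went from 5.42 ± 0.341 FPKM to 11.5 ± 1.06 in Ep1 (0.96, limma adjusted p = 0.00121) and 16.4 ± 0.705 in Ep2 (1.44, adjusted p = 2.17e-06), and was higher in Ep2 than in Ep1 (0.48, adjusted p = 0.000558). Slc38a2, a neutral amino acid carrier, rose at both doses (0.65, adjusted p = 0.0171, and 0.87, adjusted p = 0.000477), and Slc7a1 (0.32, adjusted p = 0.00975) and Slc3a2 (0.28, adjusted p = 0.013) rose in Ep1. In Ep2 the leucine and glutamine carriers Slc7a5 (−0.52, adjusted p = 4.18e-05) and Slc1a5 (−0.70, adjusted p = 5.38e-05) fell, and both were also lower in Ep2 than in Ep1 (−0.61 and −0.65), with 4 in place of 2 lower without Ep2 replicate 3. The 4 rises in Ep1 became 2 without Ctrl replicate 2, Ep1 replicate 1 or Ep1 replicate 3.

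Enzymes of serine, 1-carbon and proline synthesis split in direction. Of 11 tested, only Mthfd1l passed in Ep1 (0.13, limma adjusted p = 0.0409, lost whenever 1 library was left out), and in Ep2 5 rose and 3 fell (medians 0.01 and 0.06). Aldh1l2, a mitochondrial folate enzyme (0.59, adjusted p = 1.44e-05), and Gpt2, a mitochondrial alanine aminotransferase (0.79, adjusted p = 0.000364), rose in Ep2. Shmt2, which makes glycine in mitochondria, fell from 88.3 to 54.0 FPKM (−0.70, adjusted p = 1.35e-05), and Phgdh, the first enzyme of serine synthesis, fell by 0.28 on the log2 scale (adjusted p = 0.000454). Against Ep1, 4 were higher and 5 lower in Ep2 (median 0.05), with the smallest adjusted p for Aldh1l2 (0.42, adjusted p = 0.000131) and Shmt2 (−0.70, adjusted p = 2.1e-05).

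Of 13 tested genes for tRNA charging and export, none passed in Ep1 in the main limma fit. At an unadjusted p below 0.05, 1 was higher and 0 lower. Upward calls numbered 1 under voom, 1 with a mean of at least 5 FPKM and 1 with only the groups compared. In Ep2, 3 rose and 5 fell (median 0.02), with Sars rising (0.37, adjusted p = 0.00111) and Mars (−0.68, adjusted p = 6.72e-06), Lars (−0.29, adjusted p = 0.000193) and Wars (−0.21, adjusted p = 0.00479) falling. Against Ep1, 1 was higher (Sars, 0.30, adjusted p = 0.00456) and 5 were lower in Ep2, led by Mars (−0.60, adjusted p = 1.88e-05).

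Of 11 further genes known as targets of ATF4 or CHOP, 8 were tested and none passed in Ep1 in the main limma fit. At an unadjusted p below 0.05, 2 were higher and 0 lower. Upward calls numbered 1 under voom, 1 with a replicate block and 1 with a mean of at least 5 FPKM. With only the groups compared, 1 passed downwards. In Ep2, 6 rose and 1 fell, with a median of 0.41. Vldlr, a lipoprotein receptor, went from 6.30 ± 0.194 to 14.0 ± 1.29 FPKM (1.04, limma adjusted p = 1.43e-05), Ero1l, the oxidase of endoplasmic reticulum disulfide formation, from 35.3 ± 3.73 to 91.1 ± 15.2 (1.33, adjusted p = 0.000183), and Map1lc3b, an autophagosome protein, rose by 0.39 (adjusted p = 0.000236). Gdf15, a stress cytokine, fell in Ep2 (6.36 ± 1.15 against 9.64 ± 1.15 FPKM, −0.54, adjusted p = 0.0187) and measured 13.3 ± 2.66 in Ep1 (0.41, adjusted p = 0.123). The fall in Ep2 was lost without Ctrl replicate 1 or Ctrl replicate 2. In Ep2 against Ep1, 6 were higher, led by Vldlr (1.08, adjusted p = 1.89e-05), and Gdf15 was lower (−0.95, adjusted p = 0.00152).

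In the other arms of the unfolded protein response, the genes that passed against Ctrl were higher after PDT. Of 17 tested genes of the ATF6 and XBP1 arms, 2 rose in Ep1 and 8 in Ep2 with none falling (medians 0.10 and 0.43). Dnajb9, an XBP1-driven co-chaperone, rose at both doses (0.68, limma adjusted p = 0.027, and 0.57, adjusted p = 0.0111), and Herpud1 in Ep1 (0.30, adjusted p = 0.0444). In Ep2 the smallest adjusted p values belonged to Ern1, which encodes the sensor IRE1 (0.49, adjusted p = 4.08e-05), Edem1 (0.43, adjusted p = 0.00159) and the chaperone Hsp90b1 (0.48, adjusted p = 0.00229). Between the doses 4 were higher in Ep2, with the smallest adjusted p for Ern1 (0.44, adjusted p = 0.000123). The counts depended on single libraries. In Ep1 the count was 0 or 1 with any library left out, in Ep2 it was 5 without Ctrl replicate 2 and 11 without Ep2 replicate 1, and between the doses it was 9 without Ep2 replicate 1 and 6 without Ep2 replicate 3. With only the groups compared, 7 rose and 1 fell in Ep1, and 1 gene was lower in Ep2 against Ctrl without Ep2 replicate 1 and against Ep1 without Ep2 replicate 1 or Ep2 replicate 3.

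Of 10 tested genes of mitochondrial protein homeostasis, 1 rose and 3 fell in Ep1, and 2 rose and 4 fell in Ep2 (medians −0.02 and −0.12). The proteases Htra2 (18.9 to 7.07 FPKM, −1.30, limma adjusted p = 1.47e-06) and Clpp (71.0 to 40.1 FPKM, −0.81, adjusted p = 2.48e-06) and the co-chaperonin Hspe1 (−0.88, adjusted p = 9.66e-06) fell in Ep2, and Yme1l1 rose (0.35, adjusted p = 0.000884). In Ep1 Clpp (−0.26, adjusted p = 0.00989) had the smallest adjusted p among the falls, and Hspa9 rose (0.22, adjusted p = 0.0122). Against Ep1, 1 was higher (Yme1l1, 0.19, adjusted p = 0.0258) and 4 were lower in Ep2, led by Htra2 (−1.09, adjusted p = 4.12e-06). The 3 falls in Ep1 became 0 without Ctrl replicate 2 and 1 without Ctrl replicate 1, Ctrl replicate 3, Ep1 replicate 1 or Ep1 replicate 3, and the rise of Hspa9 was lost without Ctrl replicate 2 or Ep1 replicate 3. In Ep2 the 2 rises became 1 without Ctrl replicate 1, Ctrl replicate 2 or Ep2 replicate 1. Between the doses, the rise of Yme1l1 was lost without Ep1 replicate 1, Ep1 replicate 2 or Ep2 replicate 1, and 0 to 2 genes were higher and 4 to 6 lower with a library left out.

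**Figure D5:**
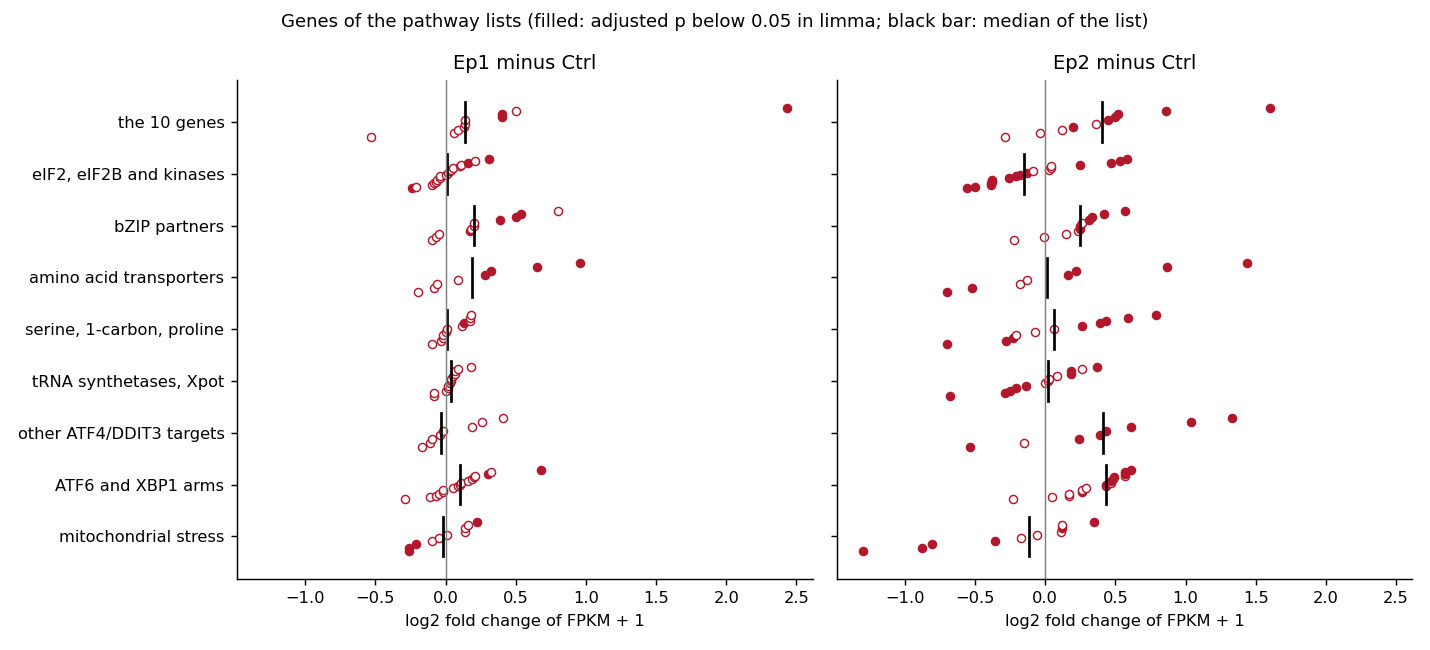
Log2 fold change of FPKM + 1 (horizontal axis) of every tested gene of the 10 stress genes and the 8 pathway lists (rows) in Ep1 and Ep2 against Ctrl; each point is 1 gene, filled where the adjusted p was below 0.05 in limma, and the black bar is the median of the list. In Ep2 the medians reach 0.43 for the ATF6 and XBP1 arms and 0.41 for the 10 genes and the further ATF4 or CHOP targets, and −0.15 for eIF2, eIF2B and their kinases.

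The genes most like 4 of the members were sought over the 9 libraries by Pearson correlation of log2(FPKM + 1), as a description in which all points share the same libraries and group differences. Closest to Atf3 were Adamts1 (r = 0.989), Mapk1ip1l (0.982), the immediate early gene Nr4a1 (0.981), Kank3 (0.977) and Braf (0.976), and 0.554% of tested genes exceeded 0.9. Closest to Atf4 were Jmjd1c (0.991), Abl2 (0.987), Zfand2a (0.985), Nav3 (0.985) and Epc2 (0.984), with 3.35% of tested genes above 0.9. Closest to Ddit3 were Tbc1d1 (0.945), Gm47962 (0.942), Ptges3l (0.929), Tmem185b (0.929) and Farp1 (0.922). Sesn2 had the fewest close matches, Cog3 (0.940), Virma (0.939), Mnd1 (0.918), Snord42b (0.905) and Mtfr2 (0.895).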

How the data were processed

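The authors aligned paired-end RNA sequencing reads to the mouse genome and deposited FPKM per gene and library, with the gene length in bases. The submitters' processing notes list Bowtie 0.12.2 and mm8 and the methods GRCm39, but the deposited coordinates overlapped GRCm38 for 99.9% of 36418 genes and GRCm39 for 12.4%, so positions are given on GRCm38. The counting tool and its use of strand were not given in the sources used here.

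FPKM times length gave whole fragments within 0.05 for 100.0% of values, 16240688 to 19509225 per library. The 11727 genes that reached 1 FPKM in 3 or more libraries entered as log2(FPKM + 1) in 1 limma model of all 9 libraries (trend and robust estimation), with Benjamini-Hochberg adjustment within each comparison. The pseudocount of 1 understates changes of low genes. Calls needed an adjusted p below 0.05. Alternatives were median centring, no filter, a mean of at least 5 FPKM, a pseudocount of 0.1, a replicate block, only the groups compared, no trend or robust estimation, voom on recovered fragments and the omission of each library. Tested on simulated data of Ep2 against Ctrl with 11727 genes, the model called 94 of 100 genes changed by 1 and 75 of 100 changed by 0.5 on the log2 scale, with 13 false calls. The simulated noise was independent and normal, with the same SD in all groups, and no other genes were changed. In the data 53.2% of tested genes passed in Ep2, and the median SD was 0.096 in Ep2 and 0.066 in Ctrl. These rates therefore need not hold for the data.

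The 10 genes, the lists, the tests and the motifs were chosen with earlier results of these data known. All 10 genes are named. For each other list, the risers and fallers with the smallest adjusted p are named with up to 2 further genes, and others only to complete a family (kinases, eIF2B) or by their values (Gdf15, Eif2s1, Cebpb, Slc7a1, Slc3a2, Slc38a2), chosen after those were seen. For Atf3, Atf4, Ddit3 and Sesn2, the 5 most correlated genes are given. Promoter windows came from RefSeq (GRCm38.p6) and were found for 10 of 10 genes. Software was R 4.3.3, limma 3.58.1, Python 3.11.15, numpy 2.4.6, pandas 2.3.3 and matplotlib 3.10.9.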

Additional observations from a re-analysis of the deposited data

Results flagged for a closer look

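The difference between the doses, tested directly in the limma model, passed an adjusted p of 0.05 for 3 of the 10 genes. Atf5 was higher in Ep2 than in Ep1 by 0.72 on the log2 scale, Asns was higher by 0.36, and Ppp1r15a differed by −0.28, lower in Ep2.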

How the results depend on the processing

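Of 420 values of single genes under the alternatives, 377 kept their direction and their side of the threshold, 29 lost the call, 10 gained it and 4 changed sign. The signs changed for 3 genes that did not pass. Sesn2 in Ep2 against Ctrl gave 0.00 after median centring and −0.10 to 0.04 with a library left out (0.04 without Ep2 replicate 2). In Ep2 against Ep1, Ddit4 gave −0.13 to 0.48 (−0.13 without Ep2 replicate 1) and Chac1 gave −0.34 to 0.09 (0.09 without Ep2 replicate 2). Of the 10 genes, 3 passed in Ep1 against Ctrl in the main fit, 1 with no filter, 5 with only the groups compared, and 1 to 3 when a library was left out (1 without Ctrl replicate 1, Ctrl replicate 2 or Ep1 replicate 3). In Ep2 against Ctrl 6 passed, 5 with the block described below, and 3 to 7 with a library left out (3 without Ctrl replicate 3). Atf3 and Ddit3 lost their Ep2 calls both with no filter and under voom. Under voom Atf3 lost its Ep1 call as well. Between the doses 3 passed, and 2 to 4 with a library left out. With a library left out, the medians of the 10 genes ranged from 0.13 to 0.20 in Ep1 and from 0.30 to 0.50 in Ep2. Between the doses they ranged from −0.03 to 0.12 in these fits. Over all genes, 1324 passed in Ep1, and 191 to 2162 across alternatives. The replicate numbers shared by the groups are not said to mark a pairing. Same-numbered libraries correlated between −0.0565 and 0.0744 in their deviations from the group means. With 3 libraries per group, these values cannot decide whether same-numbered libraries were handled together. With a replicate block, 3, 5 and 4 of the 10 genes passed in Ep1, in Ep2 and between the doses. Depth was similar in all libraries, and counting error bears most on Atf3 in Ctrl (69 to 93 fragments).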
